A study of Mus musculus with 6 samples.

Results

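Small leucine-rich proteoglycans are secreted matrix proteins with a short core of leucine-rich repeats, and most carry glycosaminoglycan chains. The genes described here are the 8 listed members of this family, Dcn (decorin), Bgn (biglycan), Aspn (asporin), Fmod (fibromodulin), Lum (lumican), Prelp (prolargin), Omd (osteomodulin) and Ogn (osteoglycin). They were taken by symbol, and all 8 were among the 17091 genes of the deposited table. RNA was taken from the lateral wall dissected out of the cochlea. The young group was 3 animals of 2 months and the old group 3 animals of 2.5 years, all of the inbred strain CBA/CaJ. Each library held the pooled cochleas of 1 mouse, and the labels name no treatment, allele or sex. The comparison asks which of these genes were expressed at other levels in old mice.

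The proteins bind collagen fibrils and set their diameter and spacing, and several also bind growth factors of the TGF-beta family in the matrix. By sequence they are sorted into classes. Decorin, biglycan and asporin form class I, fibromodulin, lumican, prolargin and osteomodulin belong to class II, and osteoglycin to class III. In the lateral wall the collagen-rich spiral ligament lies between the bony capsule and the stria vascularis, and its main cells are fibrocytes.

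All 6 libraries had similar depth, 37055355 to 39103398 reads recovered from the deposited values. Markers of the labelled tissue were abundant, with 618476 to 1382510 normalised read counts summed over 10 fibrocyte markers and 396356 to 554520 over 8 strial markers. The source label of every sample names auditory nerve cells, and the sum of 8 neuron markers was 399 to 760 in young and 652 to 5829 in old libraries. Xist, the RNA of the silenced X, was at 45.2 in old replicate 3 and at 24382 to 29162 in the other libraries. Whether the mouse of old replicate 3 differed in sex is not stated, and the part of this difference in the results was not tested. Old replicate 2 held the least blood and marrow RNA of the old libraries. Its 9 erythroid markers summed to 7145 against 21973 and 43327 in old replicates 1 and 3, and to 2895 to 4969 in the young.

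Of the 8 genes, 3 fell with age, Omd, Ogn and Bgn, and 0 rose (limma adjusted p under 0.05, Benjamini-Hochberg over all genes). Over all genes tested 2.55% were called lower and 2.71% higher, 5.25% in all. In 5 of the 8 genes every old library was below every young one, against 12.8% of all genes. The fold change was below 0 in 8 of 8 members, against 50.2% of all genes, and the median log2 fold change of the members was −0.63, against −0.00097 for all genes. Fold changes are differences of log2(value + 1), old minus young, and ± is the SD for group means and the SE for fold changes, and n is 3 in each group throughout. Reads of whole tissue cannot tell fewer cells of a type from less RNA per cell.

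**Figure D1:**
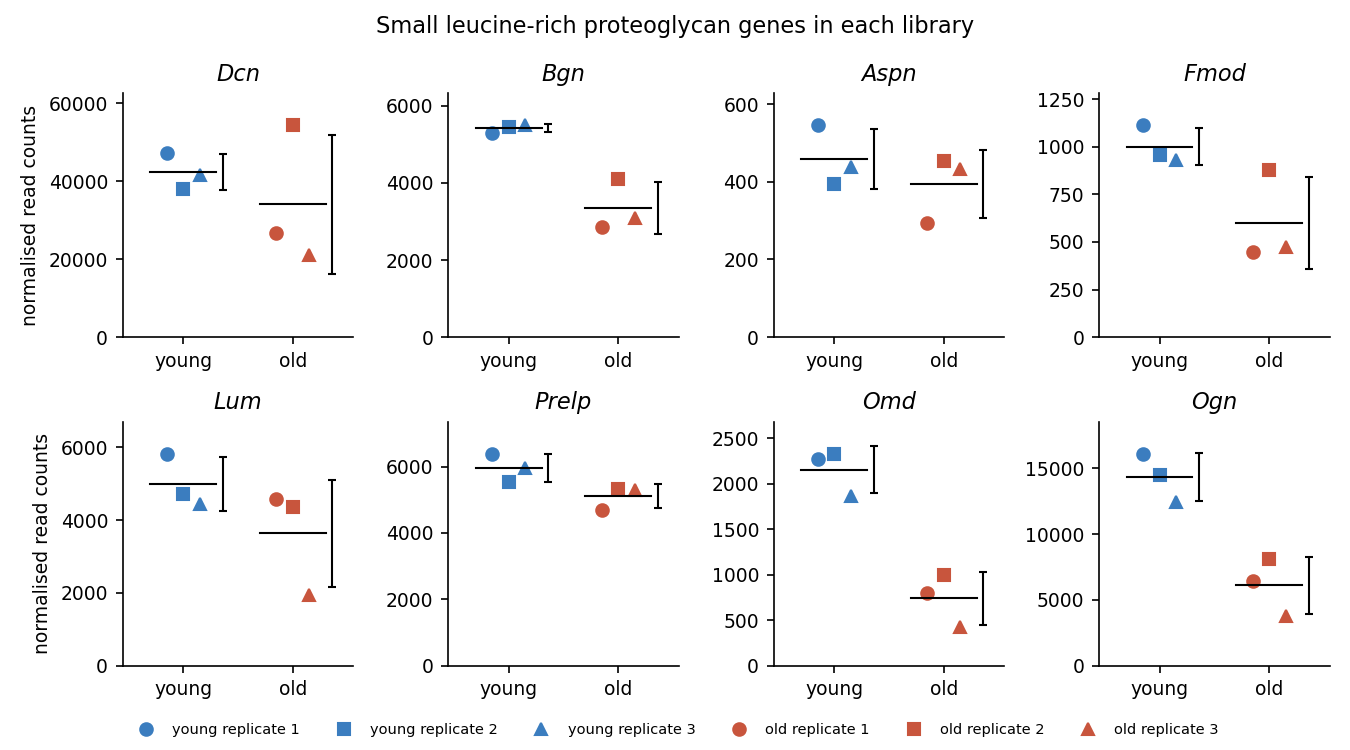
Normalised read counts (vertical axes, from 0) of the 8 genes in each young and old library. Symbols mark the replicate, the line is the group mean and the bar beside it the SD. The old values of Omd, Ogn and Bgn lie below all young values, while old replicate 2 has the highest Dcn value of all 6 libraries.

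Osteomodulin, a keratan sulfate proteoglycan first known from bone, had the steepest fall of the 8. Omd stood at 2273, 2327 and 1859 normalised read counts in young replicates 1, 2 and 3 and at 801, 992 and 421 in old replicates 1, 2 and 3. The highest old value was below the lowest young value, and old replicate 3 was the lowest. The means were 2153 ± 256 and 738 ± 291, a log2 fold change of −1.62 ± 0.29 (95% interval −2.29 to −0.96, limma adjusted p = 0.0211).

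Osteoglycin, also called mimecan, is a class III member found in bone, cornea and vessel walls. Ogn had 16119, 14505 and 12479 normalised read counts in young replicates 1 to 3 and 6416, 8103 and 3813 in old replicates 1 to 3. As for Omd, the groups were apart, with old replicate 2 the highest and old replicate 3 the lowest of the old libraries. Its means were 14368 ± 1824 and 6111 ± 2161, and its log2 fold change was −1.29 ± 0.25 (−1.88 to −0.71, limma adjusted p = 0.0296).

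Biglycan, a class I member that carries chondroitin or dermatan sulfate and binds type I and type VI collagen, fell less but with little spread among the young. Bgn had 5308, 5458 and 5497 normalised read counts in young replicates 1 to 3 and 2846, 4112 and 3085 in old replicates 1 to 3. Each old value was below each young value, and old replicate 2 was again the highest of the old. The means were 5421 ± 99.5 and 3347 ± 673, a log2 fold change of −0.71 ± 0.13 (−1.02 to −0.41, limma adjusted p = 0.0199).

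These 3 calls changed with the model and with which library was left out. Limma without its intensity trend called none of them (adjusted p of 0.0868 for Omd, 0.104 for Ogn and 0.0998 for Bgn). The whole table lost calls as well, with 194 of all genes called higher in that fit against 463 in the main one. Without any 1 young library none of the 8 genes was called, and the limma adjusted p was up to 0.096 for Omd, 0.116 for Ogn and 0.092 for Bgn. Here too calls fell over all genes, to 299, 174 and 139 called higher without young replicates 1, 2 and 3. Without old replicate 3 the call of Bgn was lost (adjusted p = 0.0541), and those of Omd and Ogn held, at log2 fold changes of −1.26 and −0.99. Without old replicate 2, limma called 5 of the 8 genes lower, Dcn and Fmod besides Omd, Ogn and Bgn. Over all genes that run called 554 higher, also more than with all 6 libraries. The runs without 1 library called 91 to 580 of all genes lower, against 435 with all 6. The test of edgeR called the same number as limma, 3, against 2.33% of genes called lower. All 8 genes had a mean of at least 50 normalised read counts, and of all genes above that mean limma called 3.04% lower. DESeq2 on the recovered reads called 4, Omd, Ogn, Bgn and Fmod, against 5.03% of its genes called lower. The authors' deposited table gives the same 4 an adjusted p under 0.05, with signed fold changes of −2.92 for Omd, −2.35 for Ogn, −1.67 for Fmod and −1.62 for Bgn.

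Fibromodulin, a keratan sulfate proteoglycan that binds type I collagen and takes part in its cross-linking, missed the limma threshold. Fmod had 1113, 957 and 933 normalised read counts in young replicates 1 to 3 and 447, 878 and 473 in old replicates 1 to 3. Old replicates 1 and 3 were far below the young, while old replicate 2 was just below the lowest young library. Its log2 fold change was −0.81 ± 0.24 (−1.36 to −0.26, limma adjusted p = 0.0984), and −1.12 without old replicate 2 (adjusted p = 0.00291).

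Decorin, the class I member that coats collagen fibrils through its core protein and carries a chondroitin or dermatan sulfate chain, was the most abundant of the 8 by reads. Dcn had 47328, 38002 and 41671 normalised read counts in young replicates 1 to 3 and 26767, 54308 and 20942 in old replicates 1 to 3. Old replicates 1 and 3 were below every young library and old replicate 2 was above every one of them, so the groups overlapped. The log2 fold change was −0.43 ± 0.32 (−1.18 to 0.32, limma adjusted p = 0.5), −0.15 without old replicate 3 and −0.83 without old replicate 2 (adjusted p = 0.00929). DESeq2 on the recovered reads gave −0.32 for all 6 libraries.

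Lumican, a keratan sulfate proteoglycan that keeps collagen fibrils thin in the cornea, was not called. Lum had 5827, 4720 and 4432 normalised read counts in young replicates 1 to 3 and 4584, 4375 and 1951 in old replicates 1 to 3. Old replicates 1 and 2 lay at the level of the lower young libraries, and old replicate 3 stood alone below them. The log2 fold change was −0.55 ± 0.32 (−1.30 to 0.21, limma adjusted p = 0.382) and −0.15 without old replicate 3.

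Prolargin and asporin had the smallest differences. Prelp, whose protein anchors basement membranes to the underlying collagen, had 6386, 5528 and 5946 normalised read counts in young and 4682, 5333 and 5303 in old replicates 1 to 3. Every old value was below every young value, but the gap was narrow, and the log2 fold change was −0.22 ± 0.10 (−0.45 to 0.0032, limma adjusted p = 0.241). Aspn, a class I member with a stretch of aspartate in place of a glycosaminoglycan chain, had 546, 395 and 437 normalised read counts in young and 293, 454 and 433 in old replicates 1 to 3. The groups overlapped, with a log2 fold change of −0.24 ± 0.21 (−0.70 to 0.23, limma adjusted p = 0.561), which was −0.11 without young replicate 1 and −0.04 without old replicate 1. An interval that reaches 0 does not show that Dcn, Lum, Prelp or Aspn were the same at both ages.

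Together the 8 genes took 0.187% to 0.214% of the normalised counts of a young library. Their share was 0.127% in old replicate 1, 0.212% in old replicate 2 and 0.101% in old replicate 3. The total thus overlapped between the groups through old replicate 2, in which Dcn alone made up 0.147% of the counts.

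Levels of different genes were compared per kb of exons. In young mice the order of mean normalised read counts per kb was Dcn (7251 ± 805), Ogn (5599 ± 711), Lum (2040 ± 301), Prelp (1647 ± 119), Omd (957 ± 114), Bgn (889 ± 16.3), Fmod (303 ± 29.5) and Aspn (195 ± 33.0). Only Omd and Bgn, neighbours in this order, overlapped among the young libraries. In old mice the order was Dcn (5825 ± 3053), Ogn (2381 ± 842), Lum (1486 ± 598), Prelp (1412 ± 102), Bgn (549 ± 110), Omd (328 ± 129), Fmod (181 ± 73.1) and Aspn (167 ± 37.3). Among the old libraries Ogn and Lum, Lum and Prelp, Omd and Fmod, and Fmod and Aspn overlapped. The place of Bgn depends on the length used, since its longest transcript is 2.67 kb and its exons together span 6.10 kb. With the longest transcript Bgn had 2033 per kb in young mice, close to Lum (2040).

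Within each library, Ogn and Omd took a smaller share of the group in the old mice, and Dcn a larger one. Ogn made up 29.9%, 31.4% and 27.5% of the summed per-kb level in young replicates 1 to 3 and 22.1%, 18.3% and 17.8% in old replicates 1 to 3. Omd went from 4.68% to 5.75% in young to 2.24% to 3.14% in old libraries. Dcn had 36.2% to 40.4% in young and 40.4% to 53.8% in old libraries, where the groups nearly touched. The mean differences, old minus young, were −10.3, −2.44 and 7.31 percentage points, each with an exact two-sided permutation p of 0.1, the smallest that 3 against 3 samples can give (Benjamini-Hochberg adjusted over the 8 genes, 0.267). Without old replicate 2 the difference for Dcn was 3.28 percentage points, and without any 1 library that for Ogn stayed between −11.6 and −9.38 and that for Omd between −2.69 and −2.11.

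**Figure D2:**
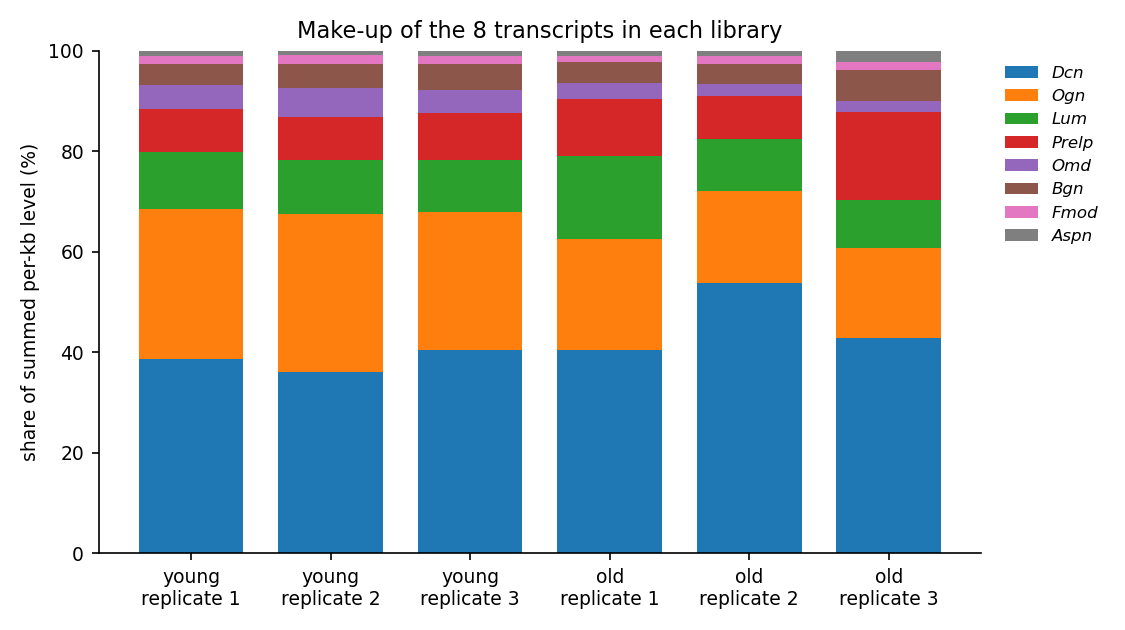
Share of each gene in the summed per-kb level of the 8 genes (vertical axis, percent), 1 stacked bar per library. The Ogn segment is 27.5% to 31.4% in young and 17.8% to 22.1% in old libraries.

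Most of these genes lie side by side on the chromosomes, a feature that their choice did not use. In GRCm38 (mm10) Aspn, Omd and Ogn are on the plus strand of chromosome 13, Aspn from 49544443 to 49567565, Omd from 49582462 to 49592822 and Ogn from 49608046 to 49624501. They follow Ecm2, another gene of the family, from 49504810 to 49532789. Dcn (97479609 to 97518143) and Lum (97565128 to 97572703) lie on chromosome 10 and are followed by the family genes Kera and Epyc. Fmod (134037254 to 134048277) and Prelp (133910304 to 133921414) lie on chromosome 1 beside Optc, with Prelp on the minus strand. Bgn lies apart from the others on chromosome X, from 73483602 to 73495933. The 3 clusters span 120, 203 and 151 kb on chromosomes 13, 10 and 1 and hold no other protein-coding gene that lies wholly within them.

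On chromosome 13, Ecm2, Omd and Ogn fell, while Aspn, between Ecm2 and Omd, was not called. The log2 ratio of Aspn to Omd within a library was −2.56 to −2.06 in young and −1.45 to 0.04 in old mice. That of Aspn to Ecm2 was −0.58 to −0.29 in young and 0.15 to 0.49 in old mice. The log2 ratio of Omd to Ogn was −2.83 to −2.64 in young and −3.18 to −3.00 in old libraries. The difference in each of these ratios had an exact two-sided permutation p of 0.1, the smallest possible (0.214 adjusted over 45 pairs of family genes). All 4 genes lie inside Cenpp on the opposite strand, and strand is not stated. Only Aspn has exons that overlap exons of Cenpp, so its reads could include Cenpp. To Omd, Ogn and Ecm2 only reads from introns of Cenpp could add. Cenpp stood at 20.8 to 29.8 normalised read counts in the 6 libraries, well below each of the 4. Prelp likewise overlaps the antisense gene Gm15851.

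**Figure D3:**
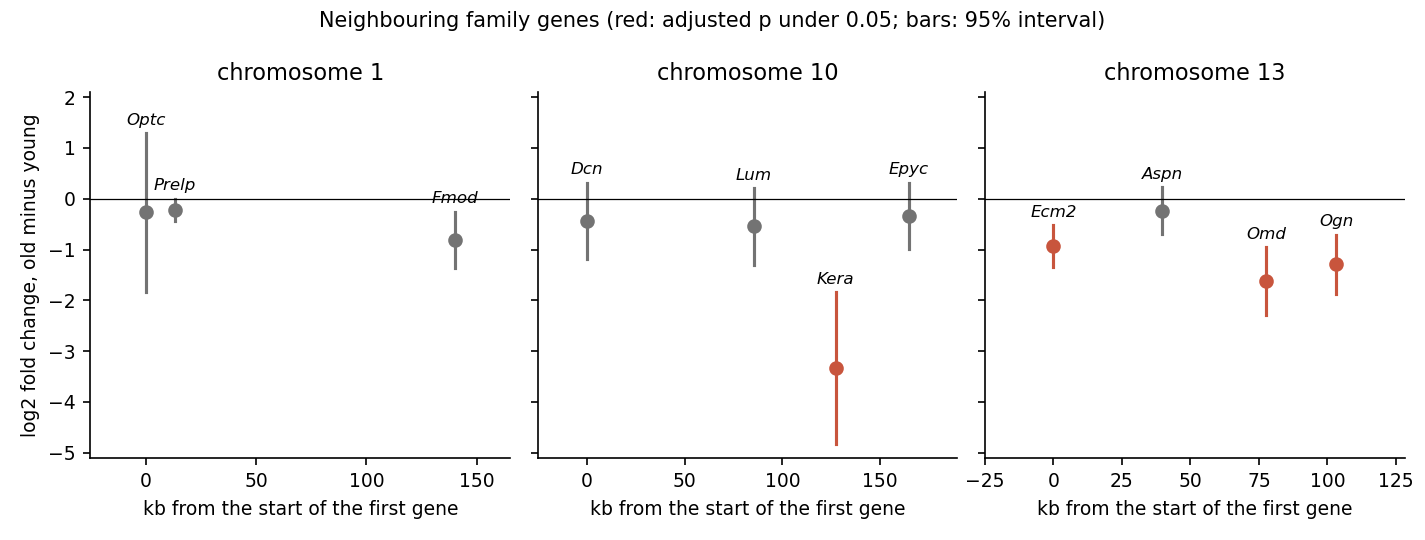
Log2 fold change of neighbouring family genes (vertical axis, old minus young, with 95% intervals) against the distance in kb from the start of the first gene of each cluster. On chromosome 13 Ecm2, Omd and Ogn are called lower, with Aspn between them at −0.24.

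Promoter sequences from RefSeq (GRCm38.p6) were matched for 6 of the 8 genes. The 250 bases before the start of the chromosome 13 neighbours Aspn, Omd and Ogn are shown because only some of these adjacent genes were called, and that of Bgn because it was called as well. Capitals mark the words TATAAA and GGGCGG on either strand; the words TGANTCA and CAGAC were also marked but do not occur in these 4 windows.
Aspn, chr13:49544193-49544442, plus strand: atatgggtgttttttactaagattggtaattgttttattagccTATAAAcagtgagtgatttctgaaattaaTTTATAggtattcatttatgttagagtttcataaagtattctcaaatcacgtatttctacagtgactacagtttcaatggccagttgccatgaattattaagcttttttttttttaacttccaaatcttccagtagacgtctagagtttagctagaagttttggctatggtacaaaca
Omd, chr13:49582212-49582461, plus strand: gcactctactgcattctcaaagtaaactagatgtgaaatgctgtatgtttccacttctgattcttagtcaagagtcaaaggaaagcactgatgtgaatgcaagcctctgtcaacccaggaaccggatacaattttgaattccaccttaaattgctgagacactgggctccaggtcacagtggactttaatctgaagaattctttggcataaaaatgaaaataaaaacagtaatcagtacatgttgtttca
Ogn, chr13:49607765-49608014, plus strand: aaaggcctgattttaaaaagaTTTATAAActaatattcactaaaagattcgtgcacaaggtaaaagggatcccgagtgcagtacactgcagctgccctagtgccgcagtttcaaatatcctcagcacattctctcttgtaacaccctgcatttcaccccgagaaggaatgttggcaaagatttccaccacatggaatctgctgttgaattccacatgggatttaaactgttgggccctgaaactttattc
Bgn, chrX:73483351-73483600, plus strand: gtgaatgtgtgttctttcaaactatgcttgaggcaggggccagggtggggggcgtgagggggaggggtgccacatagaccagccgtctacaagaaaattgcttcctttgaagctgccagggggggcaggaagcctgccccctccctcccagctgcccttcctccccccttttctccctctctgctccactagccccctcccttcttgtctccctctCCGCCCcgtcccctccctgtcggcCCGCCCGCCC

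The windows of Aspn and Ogn hold TATAAA, which 12.4% of all 32851 promoter windows of that length hold, and in Ogn its copies on opposite strands overlap. That of Bgn holds GGGCGG (32.7% of all), in 3 copies of which 2 overlap. CAGAC was found in Fmod and Prelp (42.2% of all), CANNTG, not capitalised here, in Aspn, Bgn, Fmod and Ogn (66.2%), and TGANTCA in none of the 6 (6.75%). The window of Omd held none of the 5 words, which says only that these letters are absent there. The share of G and C was 30.0% for Aspn, 38.4% for Omd, 42.0% for Ogn and 64.4% for Bgn, against a median of 52.4% over all windows.

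The other 10 genes of the family were all in the table, and 3 of them fell and 1 rose, with a median log2 fold change of −0.46. Ecm2, a matrix protein gene related to decorin, had 669, 591 and 572 normalised read counts in young and 262, 408 and 307 in old replicates 1 to 3 (log2 fold change −0.93 ± 0.18, limma adjusted p = 0.0231). Chad (chondroadherin), a class IV member of cartilage, had 451, 410 and 328 in young and 210, 225 and 174 in old libraries (−0.96 ± 0.19, adjusted p = 0.0222), and lies within Acsf2 on the opposite strand. Kera (keratocan), known from the cornea and found in tendon, was counted by 43 reads over all young and 3 over all old libraries, 14.5 times as many at equal depth (95% counting interval 4.65 to 73.3, adjusted p = 0.0248). Podnl1, the gene of a podocan-like protein, went the other way, from 3 reads in the young to 51 in the old libraries (ratio 16.8, counting interval 5.42 to 84.0, adjusted p = 0.00976). Calls of Ecm2, Kera and Chad were lost without any 1 young library and without old replicate 3 (adjusted p up to 0.0895, 0.109 and 0.0983), whereas Podnl1 was called in every run without 1 library.

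Epyc (epiphycan), a class III member expressed in the otic epithelium, was the most abundant of these by reads. It had 19245, 13217 and 15237 normalised read counts in young and 15379, 16004 and 7832 in old replicates 1 to 3, with old replicate 3 alone below the young range (log2 fold change −0.34 ± 0.28, limma adjusted p = 0.548). The Epyc difference was −0.0018 without old replicate 3, −0.19 without young replicate 1 and −0.52 without old replicate 2. Chadl (−0.43, adjusted p = 0.15), Nyx (−0.49, 0.437), Tsku (−0.35, 0.516), Podn (−0.64, 0.607) and Optc (−0.27, 0.868) were not called. Exons of Chadl overlap those of L3mbtl2 on the opposite strand, which had 708 to 965 normalised read counts, so reads of Chadl are uncertain. Podn overlaps Scp2 (6018 to 7123) on the same strand without overlapping exons, so only reads from introns of Scp2 could add to it. Podn and Optc had means under 10 normalised read counts in both groups, where depth limits what can be seen.

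**Figure D4:**
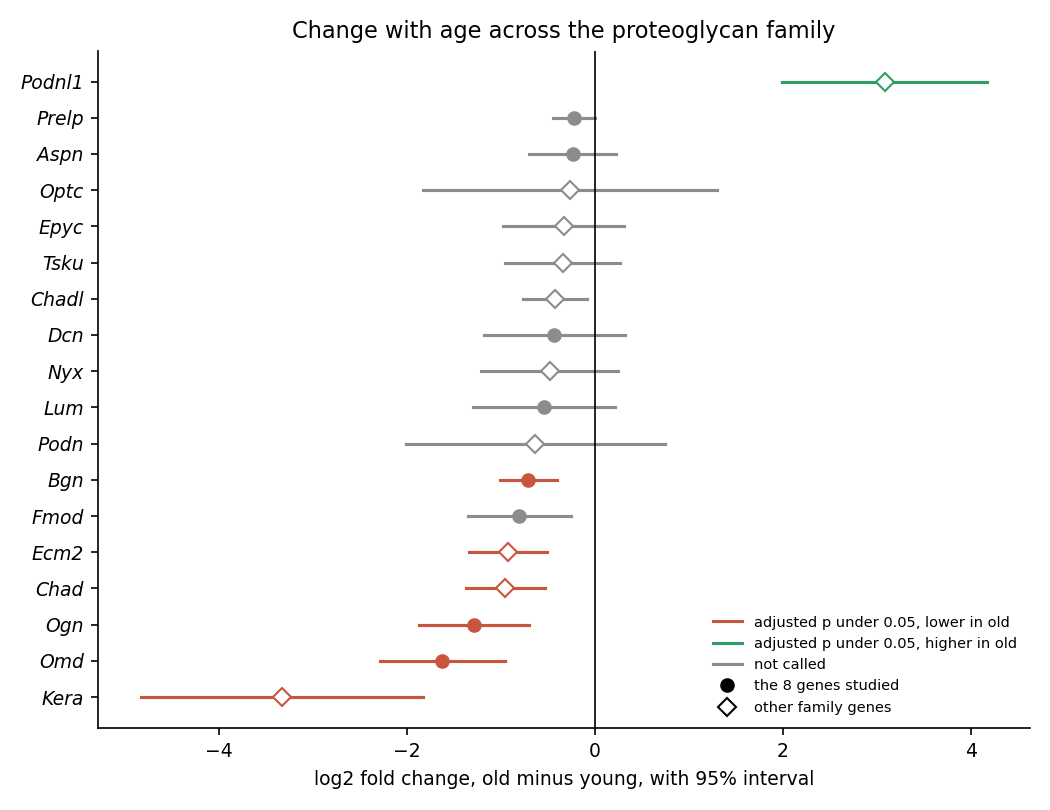
Log2 fold change (horizontal axis, old minus young, with 95% interval) of the 8 genes (filled circles) and the 10 other family genes (open diamonds). All but Podnl1 lie below 0, and the called ones run from −3.33 in Kera to −0.71 in Bgn among the falls.

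Enzymes that build the sugar chains of these proteins were measured as a group. Of 22 genes of chondroitin and dermatan sulfate synthesis 4 fell and 0 rose, with a median log2 fold change of −0.26. Those with the smallest p were Chpf and Chpf2, which encode chondroitin polymerising factors, with −0.69 ± 0.11 (limma adjusted p = 0.0092) and −0.52 ± 0.11 (0.0342), and Chst11, a chondroitin 4-sulfotransferase gene, with −0.88 ± 0.14 (0.00922). The fourth, named after its value was seen, was the chondroitin synthase gene Chsy3 (−1.60 ± 0.38, 0.0478). Chst11 had 13675 to 14404 normalised read counts in young and 6541, 9495 and 7150 in old replicates 1 to 3. The epimerase genes Dse and Dsel, which turn chondroitin into dermatan sulfate, had log2 fold changes of −0.06 and −0.12 and were not called (they were named after their values were seen). Of 8 keratan sulfate synthesis genes 1 fell, the sulfotransferase gene Chst1, with 140 to 264 normalised read counts in young and 73.7 to 87.9 in old libraries (−1.39 ± 0.27, limma adjusted p = 0.0222). Fut8 had −0.32 and Chst2 −0.54, and the median of the 8 was −0.21. Without 1 library Fut8 moved to −0.20 (young replicate 1), Chst2 to −0.29 (old replicate 1) and the median to −0.34 (old replicate 2) or −0.13 (old replicate 3). Without young replicate 3 the calls of Chpf, Chst11, Chpf2 and Chst1 were lost (adjusted p of 0.0545, 0.0536, 0.166 and 0.118). The call of Chst1 was also lost without young replicate 2 (0.104) or old replicate 3 (0.0555), and that of Chpf2 without young replicate 2 (0.142), old replicate 1 (0.0819) or old replicate 3 (0.0706).

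Collagens that the proteoglycans bind had the lowest median of the 6 related lists. Of 11 collagen genes 6 fell and 1 rose, with a median log2 fold change of −1.65, which was −0.98 without old replicate 1. Col1a2, a chain of type I collagen, had 8454 to 9884 normalised read counts in young and 404 to 951 in old libraries (−3.73 ± 0.30, limma adjusted p = 0.00161). Col5a2, a chain of the type V collagen inside type I fibrils, had 908 to 1373 in young and 169 to 294 in old libraries (−2.19 ± 0.24, 0.00249). Col6a1, a chain of the type VI collagen to which biglycan binds, had 915 to 1169 and 227 to 370 (−1.88 ± 0.19, 0.00177). Of the 6 that fell, old replicate 3 was the highest old library in Col1a2, Col5a2 and Col6a1, and old replicate 2 in Col3a1, Col6a2 and Col12a1 (the last 3 named after their values were seen). The gene that rose was Col14a1, a chain of a fibril-associated collagen, with 41.9 to 87.1 in young and 173 to 320 in old libraries (1.79 ± 0.33, 0.0189; named after its value was seen).

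Of 19 growth factors and receptors that bind the proteoglycans 3 fell and 1 rose, with a median log2 fold change of 0.06, which was 0.13 without young replicate 1, 0.10 without old replicate 2, −0.02 without young replicate 3 and −0.07 without old replicate 3. The endocytic receptor gene Lrp1, which takes up decorin, fell by 0.73 ± 0.10 on the log2 scale (limma adjusted p = 0.00602). Wisp1 (Ccn4), whose protein binds decorin and biglycan, had 476 to 513 normalised read counts in young and 220, 80.4 and 134 in old replicates 1 to 3 (−1.89 ± 0.32, 0.0148). Tgfbr3, the TGF-beta co-receptor betaglycan, had −0.48 ± 0.10 (0.0264). The gene that rose was Tlr2, an innate receptor for soluble biglycan, with 285 to 336 in young and 439 to 479 in old libraries (0.62 ± 0.15, 0.0432; named after its value was seen). The genes of the 3 TGF-beta ligands were not called, with log2 fold changes of 0.11 for Tgfb1, −0.36 for Tgfb2 and 0.32 for Tgfb3 (also named after their values were seen). The calls of Wisp1 and Tgfbr3 were lost without any 1 young library (adjusted p up to 0.0705 and 0.132), and that of Tgfbr3 also without old replicate 1 (0.0645) or 3 (0.0527).

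Of 15 proteases and their enhancers 3 fell and 1 rose, with a median log2 fold change of −0.40, which was above 0 without young replicate 2 (0.01) and without old replicate 3 (0.19). Bmp1, which encodes the procollagen C-proteinase that also trims the propeptides of biglycan and osteoglycin, had 3086 to 3348 normalised read counts in young and 1551 to 2130 in old libraries (−0.82 ± 0.12, limma adjusted p = 0.00855). Htra1, a serine protease gene, had 1526 to 1694 and 682 to 974 (−0.99 ± 0.14, 0.0067). The other that fell was Mmp2, a gelatinase gene (−1.10 ± 0.20, 0.0214; named after its value was seen). Mmp12, the macrophage elastase gene, had 3.06 to 38.8 in young and 622 to 1299 in old libraries (6.18 ± 0.77, 0.00791), a call lost without young replicate 2 (0.063). Chpf2 overlaps exons of Smarcd3 on the opposite strand, so its reads are uncertain. Htra1 lies within Fgfr2 on the opposite strand without overlapping exons, so only reads from introns of Fgfr2 could add to it.

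**Figure D5:**
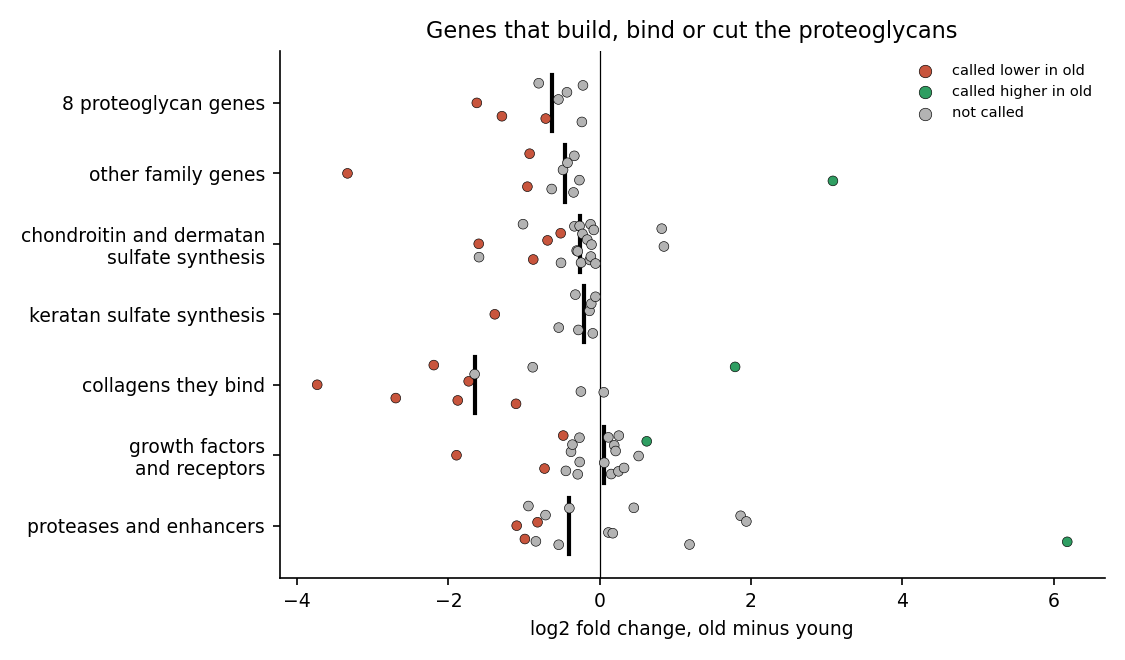
Log2 fold change (horizontal axis, old minus young) of every tested gene in the 8-gene set and the 6 related lists, 1 point per gene, with the median of each list as a black line. Of the lists shown the collagens have the lowest median, −1.65, and the growth factors and receptors lie around 0.

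Markers of connective tissue cells are given beside these results, and their part in them was not tested. Of 10 fibroblast markers 3 fell and 1 rose, and their sum was 23952 to 25662 normalised read counts in young and 11285 to 12705 in old libraries. Col1a2 and Col3a1, among those that fell, are also in the collagen list, and Kera, a tendon marker that fell, is also a family gene. Of 10 bone markers 6 fell, with sums of 5109 to 8111 in young and 3149 to 4179 in old libraries. Of 9 cartilage markers 4 fell, with sums of 28815 to 29474 and 12396 to 20570, and of 8 tendon and periosteum markers 3 fell, with sums of 2642 to 4404 and 2893 to 3268. Of 10 fibrocyte markers 2 fell, and their sum was 1229740 to 1382510 in young and 788861, 1155706 and 618476 in old replicates 1 to 3. Dcn and the fibrocyte sum thus had the same order of the old libraries, with old replicate 2 the highest and old replicate 3 the lowest. Coch was the largest part of that sum, with 437868, 728041 and 322028 in old replicates 1 to 3. Otos, Car3, Gjb2, Tbx18 and Pou3f4 had the same order as Coch, and Slc26a4, S100a1, Cldn14 and Atp1b1 did not. These markers were named after their values were seen. No marker of these lists was at 0 in any library, except Kera in old replicates 1 and 3.

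Markers of other cells the dissection could hold are given likewise, and their part was not tested. Of 10 macrophage markers 7 rose, with sums of 5556 to 6281 normalised read counts in young and 19010 to 30742 in old libraries. Of 9 erythroid markers 0 were called, while 6 were higher in every old than in every young library, against 13.2% of all genes. Of 8 neutrophil and marrow markers 2 rose, and 7 were higher in every old than in every young library. Their sums were 310 to 479 in young and 5012, 733 and 9674 in old replicates 1 to 3. From highest to lowest, the old libraries thus ranked 3, 1, 2 in marrow and erythroid sums and 2, 1, 3 in Dcn, Omd and Ogn. The other members had other orders, 2, 3, 1 in Bgn, Fmod, Prelp and Aspn and 1, 2, 3 in Lum. Of 8 neuron markers 1 rose and 1 fell, while 7 had a log2 fold change above 0, with a median of 2.64. Their sums were 399 to 760 in young and 652, 4980 and 5829 in old replicates 1 to 3. Of 8 Schwann cell markers 1 rose, and 5 had a log2 fold change above 0. Their sum, 332548 to 401107 in young and 207954 to 357276 in old libraries, was mostly S100b. That gene alone had 309808 to 378768 in young and 168279 to 321982 in old libraries (named after its values were seen). Of 8 skeletal muscle markers 2 fell, with sums of 316 to 523 and 85.5 to 161, and Acta1, Myh1 and Myh2 were at 0 in some libraries.

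The 6 genes whose pattern over the 6 libraries was most like the mean of the 8 were Pam, Nnat, F2r, Col24a1, Aplp1 and Sfrp4, of the 13308 genes averaging 50 or more. Their Pearson r with that mean was 0.990 to 0.998, over 6 libraries that share the age difference, so it is a description. Pam, the gene of a peptide-amidating enzyme, had 9461, 8468 and 8295 normalised read counts in young and 5887, 7606 and 5594 in old replicates 1 to 3. Sfrp4, the gene of a secreted Wnt antagonist, had 1447, 1333 and 1237 and then 752, 1084 and 709. F2r, Col24a1 and Sfrp4 were called lower by limma, each call lost without any 1 young library (adjusted p up to 0.113, 0.0915 and 0.146) and without old replicate 1 or 3, and Pam, Nnat and Aplp1 were not called. In each of the 6, old replicate 2 was the highest of the old libraries and still below the lowest young library. This order and the calls rest on the same values by which the 6 were chosen, so they too are description only. Among the 8 members, r with their own mean ran from 0.66 for Aspn to 0.98 for Fmod.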

How the data were processed

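RNA from 6 lateral wall libraries was analysed. Per the labels' protocols, total RNA went into Illumina's TruSeq RNA kit, and whether strand was kept is not stated. The submitters' processing notes list Partek, TopHat2, DESeq2 and the build mm10 and give no version or role for any. The deposited signal of a gene in a library is its number of reads over that library's size factor, judged from the values. Whole reads were recovered by dividing by the step of the low values, 0.946 to 1.05, and 99.9% of values came out within 0.1 of a whole number. The authors deposited a p-value, an adjusted p-value (none for 332 genes) and a signed fold change, a score here, per gene. Old and young were compared by limma 3.58.1 (trend, robust, R 4.3.3) on log2(value + 1) of the deposited values, Benjamini-Hochberg over 17091 genes, threshold 0.05; the minimum mean of 1 removed 0 genes. Libraries came from separate mice, and libraries of a group differed by more than sampling noise. Sequencing runs are not stated; 1 young and 1 old column carry the same header suffix, and if the ages were sequenced in separate runs, run and age cannot be told apart. Counting intervals cover counting error only. Alternatives were edgeR 4.0.16 and DESeq2 1.42.0 on recovered reads, quantile normalisation, limma without trend, other filters and pseudocounts, a replicate block, leaving out each library, a threshold of 0.01 and the authors' p-values. Positions and lengths come from GENCODE M21 (GRCm38). The members and lists were chosen with earlier results of these data known. The named genes are the members, the other family genes, the 3 of each related list with the smallest p and the 6 most alike in pattern. Chst4, Tll2, Matn3 and Ahsp were not matched and are not analysed here. The tests were tested on simulated data.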

Additional observations from a re-analysis of the deposited data

How the results depend on the processing

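The 8 genes had a negative log2 fold change in all 16 alternative fits. Genes called higher and lower over the whole table numbered 976 and 843 with DESeq2, 975 and 843 by the authors' deposited p-values, 194 and 113 with limma without trend, 119 and 91 at a threshold of 0.01, and 139 to 554 and 91 to 580 without 1 library, against 463 and 435. Of the 8, 0 were called lower by limma without trend or at 0.01, 1 of 4 after leaving out those that overlap another gene, and 0 to 5 without 1 library. Omd and Ogn, left out there for lying within Cenpp, have no exon that overlaps an exon of Cenpp. Limma without trend kept −0.71 for Bgn, −1.62 for Omd and −1.29 for Ogn, none called, and Fmod was called with −0.74 by DESeq2 and by the authors' p-values. Without 1 library, values ran from −0.83 to −0.15 for Dcn, −0.87 to −0.61 for Bgn, −0.35 to −0.04 for Aspn, −1.12 to −0.63 for Fmod, −0.76 to −0.15 for Lum, −0.27 to −0.16 for Prelp, −1.88 to −1.26 for Omd and −1.53 to −0.99 for Ogn, and the median of the 8 from −0.85 to −0.49. Of 85 related genes, limma without trend called 2 higher and 7 lower, against 4 and 20, and runs without 1 library 2 to 4 and 8 to 23. Optc ran from −0.64 to 0.17 without 1 library, reversed without young replicate 1. With the longest transcript, young levels per kb were 9023 for Dcn and 2033 for Bgn. Same-numbered young and old libraries did not deviate together (correlations of −0.24, −0.10 and −0.09 over 13308 genes). No library correlated best with its own number, so these correlations gave no sign that the numbers pair mice. With so few libraries per group they cannot exclude a pairing that leaves a weak trace. With the replicate number as a block, 230 genes were called higher and 176 lower, 2 related genes higher, the calls of Ecm2 (adjusted p of 0.0653), Kera (0.0517), Chad (0.0507), Chpf2 (0.0685) and Tgfbr3 (0.0653) were lost, and Bgn, Omd and Ogn stayed called (adjusted p of 0.0404, 0.0131 and 0.0164). Apart from fewer libraries in the runs without 1 library, the cause of these changes was not tested. Genes with under 10 normalised read counts are limited by depth.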
